A study of Mus musculus with 12 samples.

Results

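The SOCS feedback inhibitors and the IL-6 receptor pathway were followed through 10 genes in alveolar macrophages of the mouse lung, the phagocytes that live on the air side of the alveoli. The genes were chosen by name, with earlier results of these data known. They were the receptor genes Il6ra and Il6st, the kinase gene Jak1, the transcription factor gene Stat3, and Socs1, Socs3, Cish, Socs2, Socs4 and Socs6 of the SOCS family. All 10 were found among the 43430 genes of the expression table, and all 10 passed the filter on low values. Of the 12 RNA-seq libraries, 4 came from naive lungs, 4 from lungs 2 h after reperfusion and 4 from lungs 24 h after reperfusion in a lung transplant model. Each library was labelled alveolar macrophage, from male mice of genotype Cx3cr1gfp/+B6, in which GFP stands in for a copy of Cx3cr1, at an age of 14 weeks. The labels name no drug or antibody, do not say whether the cells were of donor or recipient origin, and put the word Allo in the titles of all reperfusion libraries without explaining it.

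IL-6 binds the receptor chain encoded by Il6ra, and the complex recruits gp130, encoded by Il6st, the chain that the cytokines of this family share for signalling. JAK kinases bound to gp130 phosphorylate it and then STAT3, which moves to the nucleus and induces many genes, Socs3 among them. SOCS3 binds gp130 and the JAK kinase and shuts the receptor down, a classical negative feedback loop. SOCS1 restrains mainly interferon receptors in a similar way. Cish and Socs2 are induced by STAT5 downstream of receptors such as that of GM-CSF, the cytokine on which alveolar macrophages depend. SOCS proteins also carry a SOCS box, which recruits a ubiquitin ligase built from elongins and a cullin.

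Expression was given as RPKM, read counts scaled by gene length and by library depth. The libraries held 6112586 to 8796071 reads on genes in naive, 7242824 to 10347265 at 2 h and 9129420 to 11997945 at 24 h. All 12 listed markers of alveolar macrophages reached 1 RPKM in every group, and their summed level was 11162.5 to 11534.4 RPKM in naive, 7458.93 to 8818.49 at 2 h and 9224.52 to 11103.3 at 24 h. Most of that sum was Chil3, with means of 7780 RPKM in naive and 7802 at 24 h. Of the 12 markers 8 were called lower and 2 higher at 24 h against naive. Siglecf was at 0.464, Itgax at 0.559 and Ear2 at 0.540 of their naive means. Marco and Car4 went the other way, from means of 94.9 and 99.7 RPKM in naive to 398 and 216 at 24 h. The summed markers of lymphocytes were at 9.83 to 17.2 RPKM in naive, 2.5 to 7.29 at 2 h and 1.40 to 3.59 at 24 h. Those of neutrophils were at 26.2 to 34.9 RPKM in naive, 28.1 to 40.4 at 2 h and 41.7 to 47.7 at 24 h. They did not move as 1 group, and of the 4 tested 1 was called higher and 1 lower at 24 h against naive. By the means S100a8 rose from 10.2 RPKM in naive to 29.8 at 24 h, while Csf3r fell from 6.51 to 2.01 and Mmp8 from 12.3 to 9.84. The 2 h libraries also stood apart in H2-Ea-ps and Ifi202b, genes whose expression is known to differ between mouse strains and which were picked here after their values were seen. H2-Ea-ps was at 0.0460 ± 0.0919 RPKM in naive, 23.1 ± 3.19 at 2 h and 3.37 ± 2.06 at 24 h (SD, n = 4 each). Ifi202b was listed at 0 throughout the naive group and was at 2.00 ± 0.232 RPKM at 2 h (SD, n = 4). The effect of reperfusion therefore cannot be told apart from another difference between the mice or cells of the groups in the comparisons that follow.

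Promoter sequences are shown for Socs3 and Cish because these were the 2 of the 8 members with a RefSeq promoter window in which the palindrome of TTC and GAA was found, the form of site that STAT dimers are known to bind. The letters searched were TTCNNNGAA and TTCNNNNGAA, each the same on both strands, in a window around the RefSeq transcription start (build GRCm38.p6). For Socs3 a stretch of 165 bases before the start, chr11:117969452-117969616 on the minus strand, is given 5′ to 3′ with the match in capitals. For Cish 30 bases around the start, chr9:107296654-107296683 on the plus strand, are given in the same way.
Socs3: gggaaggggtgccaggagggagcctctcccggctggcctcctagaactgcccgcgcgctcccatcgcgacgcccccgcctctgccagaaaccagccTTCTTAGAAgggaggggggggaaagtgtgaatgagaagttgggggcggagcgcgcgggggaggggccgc
Cish: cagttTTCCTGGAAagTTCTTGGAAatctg
The Socs3 match began at position -154 from the start, and the Cish matches began at positions 1 and 12 without overlapping each other. The Socs3 stretch lies in no exon of the annotated gene and in an intron of a longer transcript that starts farther upstream. All 3 matches have a gap of 3 bases, a form that 8.3% of 32851 RefSeq promoter windows of the same length held, while 6.95% held the form with a gap of 4 bases. The windows of Il6ra, Il6st, Jak1, Stat3, Socs1 and Socs4 held neither form, and Socs2 and Socs6 had no entry. A match describes these letters and shows no binding.

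Among the 10 genes, those called higher were called so at 2 h, and those called at 24 h were lower. At 2 h, Socs3, Socs2 and Stat3 were higher than in naive and Il6st was lower, and 6 of 10 did not pass, where 14.7% of all 11419 genes tested were higher and 22.0% lower. At 24 h against naive, 0 of the 10 were higher (25.3% of all genes tested) and 5 were lower (20.6% of all genes tested), namely Il6ra, Il6st, Cish, Socs1 and Socs2. From 2 h to 24 h, 0 were higher (30.9% of all genes tested) and 7 were lower (21.5% of all genes tested), namely these 5 with Socs3 and Stat3. The median log2 fold change of the 10 genes was 0.12 at 2 h against naive, -0.18 at 24 h against naive and -0.48 at 24 h against 2 h, beside -0.04, 0.00 and 0.05 over all genes tested. All fold changes are differences of log2(RPKM + 1), which understate the change of low genes, and the test was limma over all 12 libraries with Benjamini-Hochberg adjustment over all genes tested. The comparisons with naive share the naive libraries, and each shares a group with the third. With median-ratio scaling of the libraries, 2062 genes were higher and 2043 lower at 2 h against naive, beside 1675 and 2514 here.

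**Figure D1:**
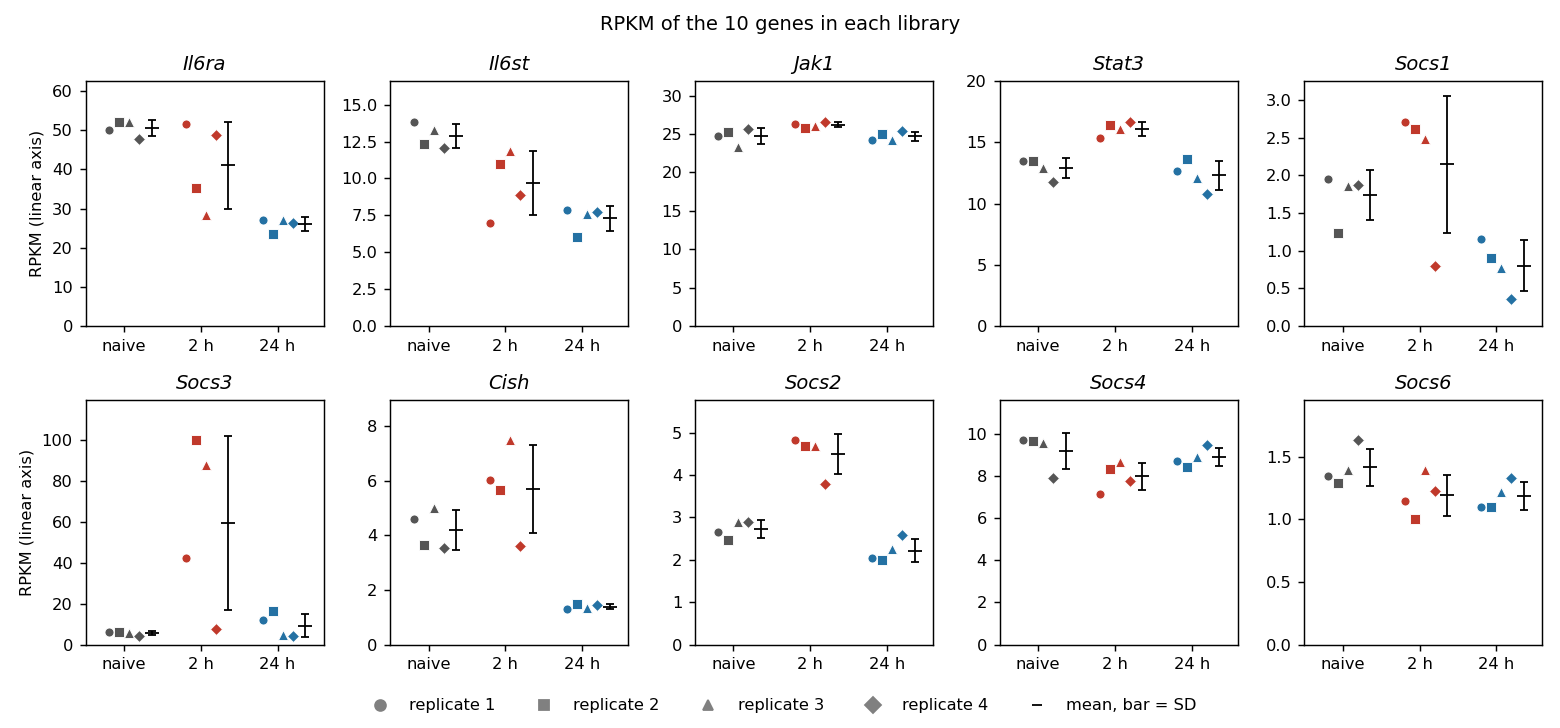
RPKM of each of the 10 genes (linear axis from 0) in each of the 12 libraries by group, with the replicate number as the marker shape and the mean with its SD beside the points. Within the 2 h group Socs3 spans 7.73 to 99.97 RPKM and Il6ra 28.3 to 51.6 RPKM, while Jak1 spans 25.8 to 26.6 RPKM.

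**Figure D2:**
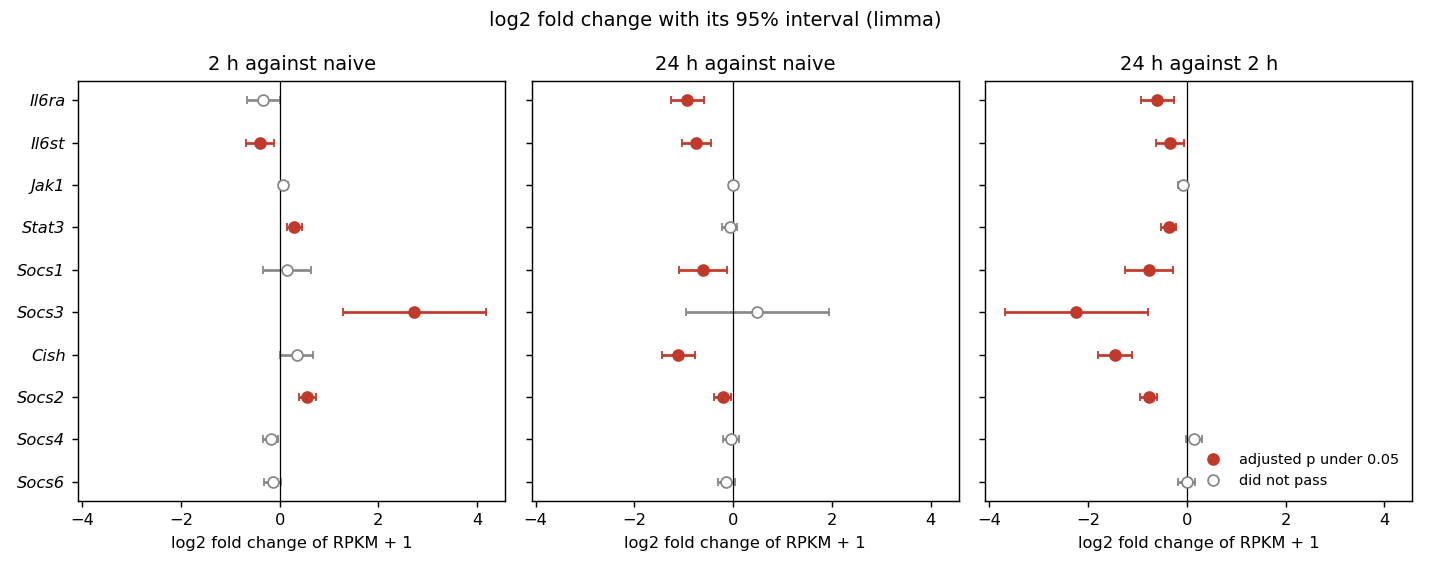
log2 fold change of RPKM + 1 with its 95% interval from limma for the 10 genes in the 3 comparisons, filled where the adjusted p was under 0.05. Socs3 has the widest intervals of the 10, 1.28 to 4.18 at 2 h against naive, and the filled points of both comparisons at 24 h lie left of 0.

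The ligand-binding receptor gene was lower at 24 h. Il6ra (chr3:89864059-89913196, minus strand, positions of genes from GENCODE M21 on GRCm38) was at 50.1, 52.1, 52.1 and 47.9 RPKM in naive replicates 1 to 4, at 51.6, 35.2, 28.3 and 48.8 RPKM at 2 h and at 27.1, 23.4, 27.1 and 26.4 RPKM at 24 h. At 2 h, replicates 1 and 4 lay inside the naive range, replicates 2 and 3 lay below it, and all 24 h libraries lay below every other library. The group means were 50.5 ± 2.01, 41.0 ± 11.1 and 26.0 ± 1.76 RPKM (SD, n = 4 each), so that the 24 h mean was 0.515 of the naive mean (log2 fold change -0.93 ± 0.15, SE, adjusted p = 0.000392, limma). Il6ra was also lower at 24 h than at 2 h (-0.60 ± 0.15, SE, adjusted p = 0.00593, limma). The difference at 2 h was -0.34 ± 0.15 (SE, adjusted p = 0.106, limma). It passed without 2 h replicate 1 (-0.46, adjusted p = 0.0291, limma) and without 2 h replicate 4 (-0.43, adjusted p = 0.0455, limma). At 24 h the alveolar macrophage markers Siglecf, Itgax and Ear2 were lower too, while Marco and Car4 were higher, as given above. The part of these changes in the lower Il6ra and Il6st was not tested. These are levels in bulk RNA, in which fewer cells of a type and less RNA per cell cannot be told apart.

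Il6st (chr13:112464070-112510086, plus strand), the gene of the shared signalling chain gp130, was lower at both times. It was at 13.8, 12.3, 13.3 and 12.1 RPKM in naive, at 7.0, 10.9, 11.9 and 8.88 RPKM at 2 h and at 7.84, 6.06, 7.57 and 7.74 RPKM at 24 h. All 2 h and 24 h libraries lay below all naive libraries, and 2 h replicate 1 lay inside the range of the 24 h libraries. The log2 fold change was -0.75 ± 0.13 (SE, adjusted p = 0.000688, limma) at 24 h and -0.40 ± 0.13 (SE, adjusted p = 0.0326, limma) at 2 h. The 2 h call ended without naive replicate 1, 2 or 3 and without 2 h replicate 1 or 4, with log2 fold changes of -0.42 to -0.27 and adjusted p of 0.0532 to 0.0798 from limma. From 2 h to 24 h the difference was -0.34 ± 0.13 (SE, adjusted p = 0.0446, limma), and this call ended when any single library other than 2 h replicate 1 was left out (-0.38 to -0.25, adjusted p = 0.052 to 0.128, limma).

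Jak1 (chr4:101152367-101265282, minus strand), the gene of a kinase bound to gp130, stayed within 23.4 to 26.6 RPKM over all 12 libraries. It was at 24.8, 25.3, 23.4 and 25.7 RPKM in naive, at 26.3, 25.8, 26.0 and 26.6 RPKM at 2 h and at 24.3, 25, 24.2 and 25.5 RPKM at 24 h. The 2 h libraries all lay above the naive and the 24 h libraries. The log2 fold change was 0.08 (95% interval -0.01 to 0.17) at 2 h and -0.003 (-0.09 to 0.09) at 24 h against naive, and no comparison passed. With median-ratio scaling Jak1 passed as higher at 2 h (0.13) and as lower from 2 h to 24 h (-0.15).

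Stat3 (chr11:100885098-100939540, minus strand), the transcription factor gene of the pathway, was higher at 2 h and overlapped the naive range at 24 h. Its values were 13.5, 13.5, 12.9 and 11.7 RPKM in naive, 15.3, 16.4, 16.1 and 16.7 RPKM at 2 h and 12.6, 13.7, 12.1 and 10.7 RPKM at 24 h. Every 2 h library lay above every other library, and replicate 4, in which Socs3 was lowest, had the highest Stat3 value. The 2 h mean was 1.25 times the naive mean (log2 fold change 0.30 ± 0.07, SE, adjusted p = 0.0058, limma), and the change from 2 h to 24 h was -0.37 ± 0.07 (SE, adjusted p = 0.00084, limma). At 24 h against naive the difference was -0.07, with a 95% interval of -0.22 to 0.08. The Stat3 exons share 72 bases with exons of Stat5a on the other strand, and whether reads were counted by strand is not given in the sources used here.

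Socs3 (chr11:117966079-117970047, minus strand), the feedback inhibitor of gp130 signalling, had the largest fold change of the 10 and the widest spread between replicates. It was at 6.12, 6.33, 5.40 and 4.28 RPKM in naive, at 42.2, 99.97, 88.1 and 7.73 RPKM at 2 h and at 11.8, 16.3, 4.79 and 4.33 RPKM at 24 h. At 2 h, replicates 1, 2 and 3 were at 7.63, 18.1 and 15.9 times the naive mean and replicate 4 at 1.40 times, just above the naive range. At 24 h, replicates 1 and 2 were at 2.13 and 2.95 times the naive mean, and replicates 3 and 4 lay inside the naive range. The reads behind these values ran from 86 to 177 in naive, 184 to 3401 at 2 h and 130 to 581 at 24 h. The coefficient of variation between libraries was 16.7% in naive, 71.5% at 2 h and 62.2% at 24 h. The change at 2 h passed (log2 fold change 2.73 ± 0.66, SE, adjusted p = 0.00775, limma, higher in 4 of 4 libraries), and it passed without each library in turn, with 2.32 without 2 h replicate 2 and 3.49 without 2 h replicate 4. The fall from 2 h to 24 h was -2.24 ± 0.66 (SE, adjusted p = 0.0137, limma), although 2 h replicate 4 lay below 24 h replicates 1 and 2, and it was -3.01 without 2 h replicate 4. At 24 h against naive the difference was 0.49, with a 95% interval of -0.96 to 1.94.

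Cish (chr9:107296026-107302784, plus strand), a SOCS gene downstream of STAT5, was lower at 24 h than at any other time. It was at 4.58, 3.66, 5.01 and 3.52 RPKM in naive, at 6.02, 5.67, 7.47 and 3.59 RPKM at 2 h and at 1.29, 1.47, 1.34 and 1.46 RPKM at 24 h. At 2 h, replicates 1, 2 and 3 lay above the naive range and replicate 4 inside it, and the 24 h libraries lay below all others with a coefficient of variation of 6.34%. The 24 h mean was 0.332 of the naive mean (log2 fold change -1.11 ± 0.16, SE, adjusted p = 0.000141, limma) and 0.245 of the 2 h mean (-1.45 ± 0.16, SE, adjusted p = 1.25e-05, limma). At 2 h the difference from naive was 0.34 ± 0.16 (SE, adjusted p = 0.109, limma), and it was 0.51 without 2 h replicate 4 (adjusted p = 0.00443, limma). Exons of Gm17040 and Gm17041 lie over 740 bases of the Cish exons on the other strand. Gm17041 was at 28.0 ± 6.22 RPKM in naive, 34.4 ± 10.9 at 2 h and 8.06 ± 1.22 at 24 h (SD, n = 4 each), the same order of groups as Cish. Without strand, reads of Cish and of these antisense genes cannot be told apart.

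Socs2 (chr10:95385362-95417180, minus strand), which acts on growth hormone and other STAT5 receptors, was higher at 2 h in every library. It was at 2.65, 2.46, 2.88 and 2.89 RPKM in naive, at 4.82, 4.68, 4.68 and 3.79 RPKM at 2 h and at 2.03, 1.98, 2.25 and 2.59 RPKM at 24 h. The 2 h libraries lay above all others, replicate 4 included, and 24 h replicate 4 lay inside the naive range while the other 24 h libraries lay below it. The log2 fold change was 0.56 ± 0.08 (SE, adjusted p = 0.000382, limma) at 2 h, and -0.77 ± 0.08 (SE, adjusted p = 9.29e-06, limma) from 2 h to 24 h. At 24 h against naive it was -0.21 ± 0.08 (SE, adjusted p = 0.048, limma). That last call ended without naive replicate 1, 3 or 4, 2 h replicate 1, 2 or 3, or 24 h replicate 1, 2 or 3, with values of -0.22 to -0.18 and adjusted p of 0.0513 to 0.126 from limma. The near-identical copies Gm8000 and Gm9847 did not exceed 0.185 and 0.224 RPKM.

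Socs1 (chr16:10782240-10785536, minus strand), the inhibitor of interferon receptor signalling, was low throughout. It was at 1.96, 1.24, 1.86 and 1.88 RPKM in naive, at 2.71, 2.61, 2.48 and 0.79 RPKM at 2 h and at 1.16, 0.91, 0.77 and 0.36 RPKM at 24 h. At 2 h, replicates 1, 2 and 3 lay above the naive range and replicate 4 below it, and all 24 h libraries lay below the naive range. The values rest on 12 to 21 reads in naive, 7 to 34 at 2 h and 4 to 17 at 24 h. In 2 h replicate 4 the 7 reads have an exact Poisson 95% interval of 2.81 to 14.4 reads, and in 2 h replicate 1 the 34 reads one of 23.5 to 47.5 reads, so these libraries differ by more than counting error. The log2 fold change was 0.15 at 2 h (95% interval -0.34 to 0.64), -0.61 ± 0.22 (SE, adjusted p = 0.0417, limma) at 24 h against naive and -0.77 ± 0.22 (SE, adjusted p = 0.0128, limma) from 2 h to 24 h. The call at 24 h against naive ended without naive replicate 1, 3 or 4 or 24 h replicate 2, 3 or 4 (-0.65 to -0.49, adjusted p = 0.0627 to 0.115, limma), while from 2 h to 24 h the change was -1.02 without 2 h replicate 4.

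Socs4 and Socs6, members of the family less tied to cytokine receptors and more to growth factor receptors, did not pass in any comparison. Socs4 (chr14:47276931-47296102, plus strand) was at 9.69, 9.65, 9.55 and 7.93 RPKM in naive, at 7.16, 8.34, 8.65 and 7.77 RPKM at 2 h and at 8.73, 8.43, 8.92 and 9.45 RPKM at 24 h, with overlap between all groups. Its difference at 2 h was -0.18 (95% interval -0.34 to -0.02, adjusted p = 0.0672, limma), and it passed without naive replicate 4 (-0.25) or without 2 h replicate 3 (-0.22). Socs6 was at 1.35, 1.29, 1.39 and 1.63 RPKM in naive, at 1.15, 1.0, 1.39 and 1.22 RPKM at 2 h and at 1.10, 1.10, 1.22 and 1.33 RPKM at 24 h. Its groups also overlapped, and the difference was -0.14 both at 2 h and at 24 h against naive (95% intervals -0.31 to 0.03).

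Levels were compared between genes per merged exon length, for the 6 members whose deposited gene length could be traced to the annotation, as reads per kilobase of merged exons scaled by depth in the same way as RPKM. In naive the order of these levels was Jak1 (35.3 ± 1.46), Il6st (33.0 ± 2.08), Stat3 (32.0 ± 2.04), Cish (7.23 ± 1.24), Socs3 (6.29 ± 1.05) and Socs2 (5.67 ± 0.435) (SD, n = 4 each). Jak1 and Il6st overlapped between libraries, as did Il6st and Stat3, Cish and Socs3, and Socs3 and Socs2. At 2 h Socs3 came first by its mean level (67.7 ± 48.4, SD, n = 4), but its range of 8.79 to 114 took in the levels of Stat3 (40.0 ± 1.43), Jak1 (37.3 ± 0.470) and Il6st (24.8 ± 5.6). At 24 h the levels were Jak1 35.2 ± 0.853, Stat3 30.5 ± 3.02, Il6st 18.7 ± 2.15, Socs3 10.6 ± 6.58, Socs2 4.61 ± 0.571 and Cish 2.40 ± 0.152 (SD, n = 4 each). By this measure Cish was narrowly above Socs2 in naive, its lowest library at 6.07 and the highest of Socs2 at 6.02. At 24 h Cish was below Socs2, at most 2.53 against at least 4.13. This order rests on the merged exon lengths, 6419 bases for Cish and 9531 for Socs2. The Cish level may also hold reads of its antisense genes, as given above. Il6ra, Socs1, Socs4 and Socs6 were left out because the lengths behind their values did not match.

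Of 10 ligand genes of the IL-6 family 5 reached the level tested. Of these, Lif and Ebi3 passed as higher at 2 h (14.7% of all genes tested). Clcf1 and Il27 passed as lower at 24 h against naive (20.6% of all genes tested). Osm, Clcf1, Il27 and Ebi3 passed as lower from 2 h to 24 h (21.5% of all genes tested). Il6 itself was too low to be tested, with 0, 0, 0 and 2 reads in the naive libraries, 12, 14, 3 and 0 reads at 2 h and 2, 1, 0 and 1 reads at 24 h. Osm, which encodes oncostatin M, was at 19.3, 14.4, 26.3 and 36.3 RPKM in naive, at 109, 67.7, 11.1 and 31.2 RPKM at 2 h and at 13.4, 17, 10.8 and 9.50 RPKM at 24 h. Osm was thus high in 2 h replicates 1 and 2 and below all naive libraries in 2 h replicate 3. Its difference at 2 h was 0.80 ± 0.55 (SE, adjusted p = 0.276, limma), and from 2 h to 24 h it was -1.63 ± 0.55 (SE, adjusted p = 0.0264, limma). Clcf1, a ligand of the CNTF receptor, changed by -1.01 at 24 h against naive (adjusted p = 0.000277, limma). Ebi3, a subunit of IL-27, changed by 0.56 at 2 h (adjusted p = 0.0156, limma) and Lif by 0.41 (adjusted p = 0.0245, limma), both from naive means under 1 RPKM.

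Of the 5 other receptor chains of the family, Osmr, Lifr and Cntfr were at or near 0, and Il11ra1 and Il27ra were tested. No read of Osmr was seen in the naive and 2 h groups, and Lifr and Cntfr had means under 0.1 RPKM in every group. Il11ra1, the IL-11 receptor chain, was at 1.46 ± 0.0833 RPKM in naive, 1.61 ± 0.162 at 2 h and 1.69 ± 0.237 at 24 h (SD, n = 4 each) and did not pass. Il27ra, the IL-27 receptor chain that pairs with gp130, was lower at 2 h (-0.45 ± 0.09, SE, adjusted p = 0.00206, limma) and at 24 h (-0.96 ± 0.09, SE, adjusted p = 4.11e-06, limma), so that Il6ra, Il27ra and Il6st were each lower at 24 h than in naive.

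Most of the remaining JAK and STAT genes were lower at 2 h. Of 7 tested in this list, 0 were higher and 6 lower at 2 h against naive, with a median log2 fold change of -0.41, beside 22.0% lower and a median of -0.04 over all genes tested. Stat5b, which induces Cish and Socs2, was at 10.4 RPKM in naive, 6.94 at 2 h and 8.31 at 24 h by its means (-0.53 ± 0.06 at 2 h, SE, adjusted p = 0.000106, limma). Tyk2, a kinase bound to gp130 and interferon receptors, was lower by -0.50 at both times (adjusted p = 0.00134 and 0.00072, limma). Stat6, the factor downstream of the IL-4 receptor, was lower at 24 h (-0.45 ± 0.06, SE, adjusted p = 0.000115, limma). At 24 h against naive 0 of the 7 were higher and 4 lower, and from 2 h to 24 h 2 were higher and 1 lower. Over all genes tested, 25.3% were higher and 20.6% lower at 24 h against naive, and 30.9% and 21.5% from 2 h to 24 h.

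Of 12 other negative regulators, the genes of SOCS5, SOCS7, PIAS proteins, phosphatases and the adaptor Sh2b3, 2 were higher and 3 lower at 2 h, 1 higher and 4 lower at 24 h against naive, and 2 higher and 5 lower from 2 h to 24 h. Over all genes tested, 14.7% were higher and 22.0% lower at 2 h, which is near the shares among these 12. The shares over all genes tested were 25.3% higher and 20.6% lower at 24 h against naive, and 30.9% and 21.5% from 2 h to 24 h. Ptpn1, a phosphatase of JAK kinases, was at 29.4, 30.3, 31.4 and 26.7 RPKM in naive and at 57.0, 77.1, 81.1 and 43.4 RPKM at 2 h, and was higher in every 2 h library (1.07 ± 0.16, SE, adjusted p = 0.000432, limma). Socs5 was lower at 2 h (-0.75 ± 0.14, SE, adjusted p = 0.00164, limma) and at 24 h (-0.40 ± 0.14, SE, adjusted p = 0.0325, limma). Ptprc, the CD45 phosphatase that acts on JAK kinases, was lower at 24 h (-0.59 ± 0.07, SE, adjusted p = 4.53e-05, limma). Of the 5 genes of the ubiquitin ligase that the SOCS box recruits, 1 was higher at 2 h (14.7% of all genes tested). At 24 h against naive 4 of them were higher (25.3% of all genes tested), and 0 were lower at either time. Elob, the gene of elongin B, rose from 110 RPKM in naive to 166 at 24 h by its means (0.58 ± 0.08, SE, adjusted p = 0.000101, limma). Adam10, a protease that sheds the IL-6 receptor from the cell surface, was higher at 24 h (0.39 ± 0.05, SE, adjusted p = 7.55e-05, limma), and Adam17, the other sheddase, did not pass.

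**Figure D3:**
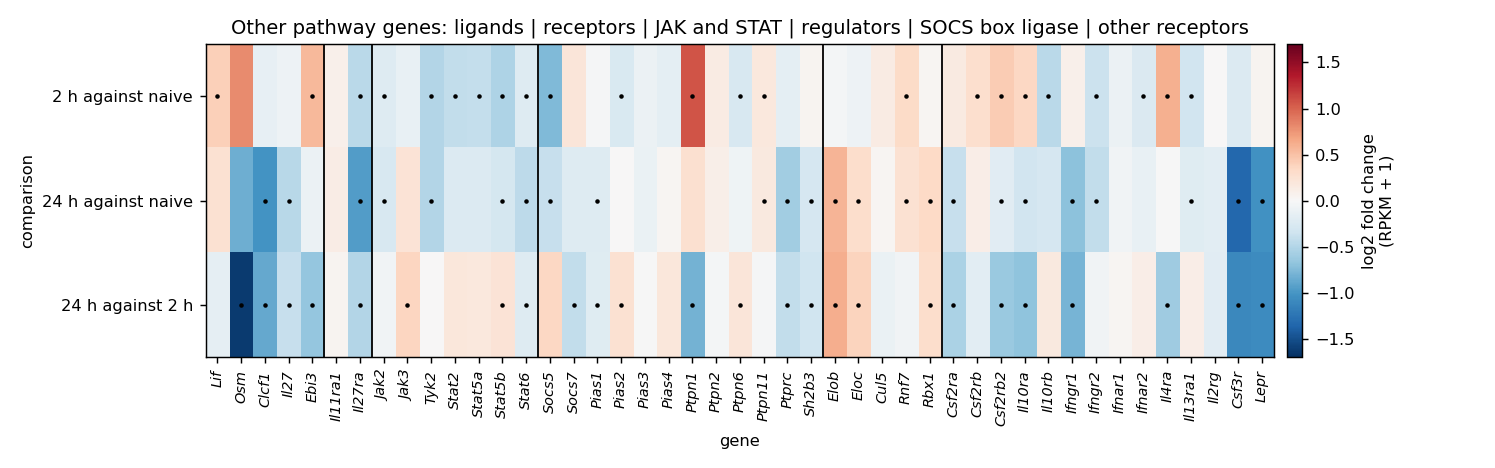
log2 fold change of RPKM + 1 (colour) of the tested genes of 6 lists (columns, separated by black lines) in the 3 comparisons (rows), with a dot where the adjusted p was under 0.05. The JAK and STAT columns are lower at 2 h against naive in 6 of 7 genes, and Elob is higher in both comparisons at 24 h.

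Of 14 tested receptor genes outside the IL-6 family whose products use JAK kinases, 4 were higher and 4 lower at 2 h, 0 higher and 8 lower at 24 h against naive and 0 higher and 7 lower from 2 h to 24 h. Over all genes tested, 14.7% were higher and 22.0% lower at 2 h. The shares were 25.3% higher and 20.6% lower at 24 h against naive, and 30.9% and 21.5% from 2 h to 24 h. Of the 14 receptor genes 6 did not pass at 24 h against naive. Csf2rb2, the beta chain of the mouse IL-3 receptor, was at 56.2 RPKM in naive, 76.6 at 2 h and 49.2 at 24 h by its means (0.44 ± 0.06 at 2 h, SE, adjusted p = 0.000348, limma). Csf2ra, the GM-CSF receptor alpha chain, was lower at 24 h (-0.39 ± 0.07, SE, adjusted p = 0.00115, limma), as was Ifngr1, an interferon gamma receptor chain (-0.70 ± 0.10, SE, adjusted p = 0.000122, limma). Csf3r, the G-CSF receptor and also a neutrophil marker, was lower at 24 h (-1.33 ± 0.16, SE, adjusted p = 3.99e-05, limma). The median log2 fold change of the 14 was 0.03, -0.25 and -0.36 in the order of comparisons above, beside -0.04, 0.00 and 0.05 over all genes tested.

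Genes that STAT3 is known to induce did not move as 1 group. Of 23 tested, 7 were higher and 0 lower at 2 h, 4 higher and 5 lower at 24 h against naive, and 3 higher and 14 lower from 2 h to 24 h. Over all genes tested, 14.7% were higher and 22.0% lower at 2 h, 25.3% higher and 20.6% lower at 24 h against naive, and 30.9% higher and 21.5% lower from 2 h to 24 h. Hif1a, the hypoxia factor, was higher at 2 h (0.55 ± 0.11, SE, adjusted p = 0.00336, limma) and at 24 h (0.85 ± 0.11, SE, adjusted p = 9.28e-05, limma). Lcn2, an iron-binding acute phase protein, was at 0.0508 RPKM in naive, 0.0753 at 2 h and 1.53 at 24 h by its means (1.26 ± 0.11 at 24 h, SE, adjusted p = 2.39e-06, limma). Mcl1, a survival factor, and Myc were lower at 24 h, each by -0.63 (adjusted p = 3.05e-05 and 0.000869, limma). Of 7 tested genes that STAT5 is known to induce, 4 were higher and 0 lower at 2 h and 7 of 7 were lower from 2 h to 24 h. At 24 h against naive 1 of them was higher, 1 was lower and 5 did not pass. Id2, an inhibitor of helix-loop-helix factors, was at 46.8 RPKM in naive, 255 at 2 h and 79.8 at 24 h by its means (2.34 ± 0.23 at 2 h, SE, adjusted p = 2.77e-05, limma). Ccnd2, cyclin D2, was higher at 2 h (1.08 ± 0.21, SE, adjusted p = 0.00222, limma). Bcl2l1, the gene of the survival factor Bcl-xL, is on both lists.

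The 2 h libraries differed from each other gene by gene, and the genes named here were chosen after their values were seen. Bcl3, an NF-kB cofactor that STAT3 is known to induce, was at 0.995, 6.70, 8.22 and 2.09 RPKM in 2 h replicates 1 to 4 against 1.36 to 2.08 RPKM in naive. Sbno2, a STAT3-induced corepressor, was at 47.0, 105, 112 and 50.6 RPKM against 39.8 to 51.7 RPKM. Both were thus high in the 2 libraries with the highest Socs3, replicates 2 and 3, and within or near the naive range, or below it, in replicates 1 and 4. Bcl2l1 was at 5.94, 10.7, 12.0 and 4.27 RPKM and Bcl6, a transcriptional repressor, at 2.43, 6.18, 5.37 and 2.09 RPKM in 2 h replicates 1 to 4. Junb and Egr1, immediate early genes, followed another order of libraries. Junb was at 369, 383, 126 and 110 RPKM and Egr1 at 26.4, 34.4, 3.70 and 11.9 RPKM in 2 h replicates 1 to 4, so that both were high in replicates 1 and 2, as Osm was, and not in replicate 3. Il6ra was lowest in replicates 2 and 3, and Cish, Socs1 and Socs2 were lowest in replicate 4.

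**Figure D4:**
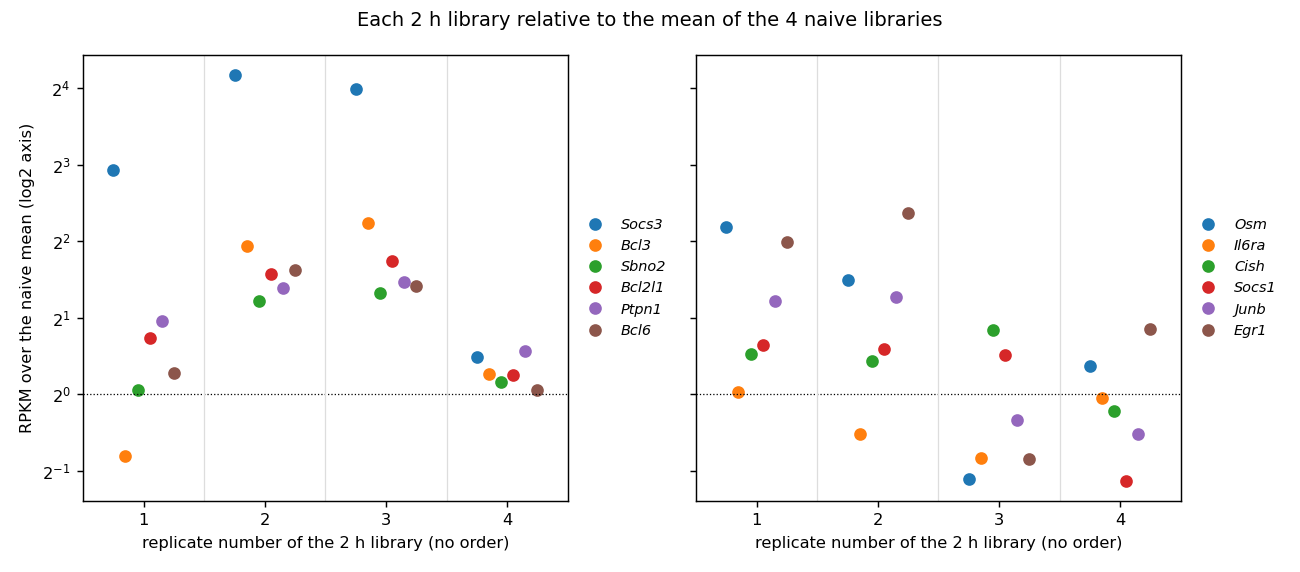
RPKM of 12 genes in each 2 h library as a ratio to the mean of the 4 naive libraries (log2 axis, dotted line at the naive mean), with 1 point per library and gene. In replicate 3 Socs3 is at 15.9 and Bcl3 at 4.70 times the naive mean while Osm is at 0.462 times, and in replicate 4 Socs3 is at 1.40 times.

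Of 14 tested genes known to rise when cells are handled, 3 were higher and 0 lower at 2 h (14.7% and 22.0% of all genes tested), and 0 were higher and 8 lower from 2 h to 24 h (30.9% and 21.5% of all genes tested). Atf3, a stress-induced factor, was at 60.4, 32.7, 26.6 and 39.7 RPKM at 2 h against 6.84 to 15.6 RPKM in naive (1.89 ± 0.29, SE, adjusted p = 0.000542, limma). Nr4a1 was at 108, 65.9, 12.1 and 24.7 RPKM at 2 h against 8.10 to 12.7 RPKM in naive. The genes of this list did not share 1 order of the 2 h libraries. Atf3 and Nr4a1 were highest in replicate 1 and lowest in replicate 3. Dusp1, Zfp36 and Ier3, named here after their values were seen, were lowest in replicate 4, at 0.780, 0.690 and 2.48 times their naive means. In replicate 3, where Socs3 was at 15.9 times its naive mean, they were at 0.945, 0.792 and 2.96 times. The part of cell handling in the values of the SOCS genes was not tested.

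Likeness was measured as the root mean square difference of log2(RPKM + 1) between a gene and a member over the 12 libraries, each gene centred on its own mean. The 4 genes nearest to Socs3, whose own root mean square deviation was 1.5, were Gadd45b (0.69), Mt2 (0.72), Rgcc (0.74) and Id2 (0.74). Mt2, a metallothionein, was at 178, 511, 803 and 107 RPKM and Gadd45b, a stress response gene, at 17.5, 29.6, 33.9 and 9.60 RPKM in 2 h replicates 1 to 4. These 4 genes were lowest in replicate 4 among the 2 h libraries, as Socs3 was, which their choice by likeness over the same libraries favours. The 5 nearest to Cish, whose own deviation was 0.65, were Il12rb2 (0.23), Hivep3 (0.25), Stac2 (0.25), Icosl (0.26) and Ucp3 (0.26). Il12rb2, an IL-12 receptor chain, was at 7.28 RPKM in naive, 11.8 at 2 h and 3.03 at 24 h by its means. These distances describe 12 libraries from 3 groups and carry no test.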

How the data were processed

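Polyadenylated RNA of alveolar macrophages was isolated with the PicoPure kit and sequenced, per the labels' protocols, in 12 libraries of 3 groups of 4, grouped by their time point label. The authors deposited RPKM values per Ensembl gene. The tools named were bcl2fastq, TopHat2 and HTSeq and the build was mm10, per the submitters' processing notes. Their versions, the annotation, the strand setting and the gene length used were not given in the sources used here. Values times length came out as whole reads within 0.02 reads for all 11419 tested genes, which gave the library totals. The length behind them equalled the sum of the exons of all transcripts in 56.6% of 11330 tested genes of GENCODE M21 and the merged exons in 16.5%, so levels of different genes are not compared in RPKM. A gene of 1 kb with 3 reads had 0.25 to 0.491 RPKM. Such limits and Poisson intervals cover counting error only.

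Genes that reached 1 RPKM in 4 or more libraries entered a test with limma 3.58.1 in R 4.3.3 on log2(RPKM + 1), with a variance trend, all 12 libraries in the fit, two-sided tests, Benjamini-Hochberg adjustment over 11419 genes per comparison and a threshold of 0.05. The steps were tested on simulated data. The labels do not name the animal behind each library, so the spread that p-values rest on may be technical. Promoter sequences came from RefSeq (GRCm38.p6), and motifs were searched as exact letters. The members and lists were chosen with earlier results of these data known. All 10 members are described. Of the other lists, apart from the cell type markers, at most 4 genes each are named, those with the smallest p. Named besides are the IL-6 family ligands and receptors and genes said to be chosen after their values were seen. A few genes that these rules cover are not reported here. Alternatives were other pseudocounts, filters, scalings, variance models and weights, a fit of only the compared groups, a replicate block, voom on the recovered reads, each library left out, and, chosen after seeing the data, RPKM over merged exons.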

Additional observations from a re-analysis of the deposited data

Results flagged for a closer look

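Within groups of 4 libraries, 5 values stood far from the other 3 by Dixon's test, with a gap to the nearest library, as a share of the group's range, above the 95% critical value, which chance gives in about 1 in 20 groups. Socs1 in 2 h replicate 4 (0.792 RPKM) and Socs2 in 2 h replicate 4 (3.79 RPKM) were the lowest of the 2 h group, the library in which Socs3 and Cish were also lowest. Socs1 in naive replicate 2 (1.24 RPKM, from 12 reads), Socs4 in naive replicate 4 (7.93 RPKM) and Il6st in 24 h replicate 2 (6.06 RPKM) were the lowest of their groups. No Socs3 value stood apart by this test in any group.

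The change from naive differed between 24 h and 2 h in 7 of the 10 genes, by the test of 24 h against 2 h (limma, adjusted p under 0.05). By the same test 30.9% of all genes tested were higher and 21.5% lower. These 7 calls are those already given for 24 h against 2 h. The change at 24 h minus that at 2 h was -2.24 for Socs3, -1.45 for Cish, -0.77 for Socs2, -0.77 for Socs1, -0.60 for Il6ra, -0.37 for Stat3 and -0.34 for Il6st on the log2 scale. Cish and Socs2 had the smallest adjusted p (1.25e-05 and 9.29e-06, limma), and every 24 h library lay below every 2 h library in both.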

How the results depend on the processing

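Of 30 member comparisons, 19 kept their direction and their side of the threshold under all settings run, 25 in number, with fewer for genes that a filter at 5 RPKM removed (Socs1, Socs2 and Socs6). The rise of Socs3 at 2 h ranged from 2.32 to 3.49, and the fall of Cish at 24 h against naive from -1.59 to -1.03. The count of members lower at 2 h against naive, 1 here, was 0 with no filter on low values, with median-ratio scaling, with the 2 groups alone and with the replicate block, 2 with library weights, and 0 to 2 without each replicate in turn. The count lower at 24 h against naive, 5 here, was 3 with no filter and with a filter at 5 RPKM, and 3 to 5 without each replicate in turn. With the filter at 5 RPKM fewer genes were tested, and 2669 were called at 2 h against naive and 3923 at 24 h against 2 h. Values near 0 changed sign. Jak1 at 24 h against naive (-0.003) ranged from -0.0303 to 0.0139 without each replicate in turn. Socs6 at 24 h against 2 h (-0.001) was 0.0195 with library weights, 0.00282 with voom on recovered reads and -0.0442 to 0.0422 without each replicate in turn. Socs1 at 24 h against naive was -0.37 and did not pass over merged exons, a setting chosen after seeing the data. The cause of these differences was not tested, apart from the smaller number of genes under the filter. Same-numbered libraries of different groups did not deviate together (r of -0.04 to 0.05 over 12 pairs), so the numbers are not taken to pair the libraries. With the replicate block, Il6st at 2 h (-0.40, adjusted p = 0.0526, limma) and at 24 h against 2 h (-0.34, adjusted p = 0.066, limma) and Socs2 at 24 h against naive (-0.21, adjusted p = 0.0813, limma) did not pass, and no other call on the members changed. Depth limits Socs1, with 4 to 34 reads per library.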
